A study of Mus musculus with 6 samples.

Results

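Small nucleolar RNAs (snoRNAs) were followed on 6 mouse microarrays. Of these, 3 held RNA of embryonic stem (ES) cells kept undifferentiated, and 3 held RNA of ES-derived cells sorted for a Pax7-GFP reporter after 3 weeks of myogenic differentiation. The members were the rows of the deposited table whose only gene symbol in the platform annotation began with Snora or Snord followed by a digit. This rule found 75 rows, or probe sets, for 73 symbols among the 23521 rows with a single symbol. Of the 75 rows, 28 were box H/ACA snoRNAs (Snora, 26 symbols) and 47 were box C/D snoRNAs (Snord, 47 symbols). The gene identifiers of all 75 rows were found in the RefSeq table of mouse genes, which gave 74 of them the type snoRNA and Snord73b the type snRNA. Another 43 rows carried a Snora or Snord symbol together with other symbols and were not members.

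The ES cells carried no label of treatment or genotype beyond being undifferentiated and pluripotent. The sorted cells are defined by GFP driven with Pax7, a transcription factor of muscle progenitors, and the gates were set per reporter line on undifferentiated cultures, per the labels' protocols. The names and number of ES lines are not given in the labels, and the sort is described for differentiated cultures, so sorting and differentiation cannot be told apart. The titles call the replicates biological without saying how cultures were kept apart, so the p-values rest on the spread among these 6 arrays, which may be technical. In bulk samples, fewer cells of a type and less RNA per cell cannot be told apart. The assay primes from poly(A) tails, which mature snoRNAs lack. A difference of a snoRNA row is therefore a difference in array signal, not a measured level of mature snoRNA.

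A snoRNA is a short stable nuclear RNA that pairs with another RNA, mostly pre-ribosomal RNA, and brings a protein complex to it. Box C/D snoRNAs guide ribose methylation by fibrillarin, and box H/ACA snoRNAs guide conversion of uridine to pseudouridine by dyskerin. A few, such as U3, U8, U17 and U22, are needed for cleavage or folding of pre-rRNA instead. Most mammalian snoRNAs lie in introns of host genes and are trimmed out of the spliced intron, so 1 host transcript can give several snoRNAs. Many hosts encode ribosomal or nucleolar proteins or are noncoding RNAs of the Snhg family, and a start site within a run of pyrimidines is a known feature of such genes.

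The comparison within a host gene rests on the hosts that held at least 2 member rows. For that reason the 30 bases around the RefSeq start of 8 of them are shown, 15 on each side. They run 5′ to 3′ on the strand of the gene, in GRCm38.p6, with the longest run of C and T in capitals:
Snhg12, chr4:132308663-132308692, plus strand: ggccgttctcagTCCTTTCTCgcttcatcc
Snhg3, chr4:132353672-132353701, minus strand: tagtcgaccacgcctgaCTTCCgggcgtta
2410006H16Rik, chr11:62602862-62602891, plus strand: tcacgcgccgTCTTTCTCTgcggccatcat
Nop58, chr1:59684991-59685020, plus strand: tatttgctgCTCCacgaggagaggtgtgga
Ncl, chr1:86359441-86359470, minus strand: ggCTCCggggacggacgcgagctctggttg
Gnl3, chr14:31019117-31019146, minus strand: cgtaaaTCCaacctgtggccgccaggcgag
Wdr43, chr17:71616200-71616229, plus strand: aCCCCgcgccggtgcgcctgcgcccgggcg
Rps12, chr10:23787195-23787224, minus strand: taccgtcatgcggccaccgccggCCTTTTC
Snhg12 and 2410006H16Rik, both noncoding hosts, and Rps12, a ribosomal protein gene, had runs of at least 6 pyrimidines in this window. They were the only 3 to do so among the 12 such hosts with a sequence. The Rps12 run lies downstream of the start, at the end of the window, so the start is not within it. Among the 40 hosts with a sequence, 19 (47.5%) held such a run on the strand of the gene, beside 29.1% of the 27025 genes with a sequence. A run anywhere in the 30 bases was counted, whether or not it held the start. The motif CACGTG, which reads the same on both strands, lay in the 300-base promoter of 9 hosts (22.5%), beside 7.24% of all genes. These are matches of letters and are given as a description of the hosts.

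Array medians of the members were lower in Pax7-GFP cells in both classes. The median log2 signal of the 28 H/ACA rows was 9.08, 8.79 and 8.71 on the ES arrays and 8.23, 7.63 and 8.18 on the Pax7-GFP arrays. The median of the 47 C/D rows was 8.60, 8.71 and 8.52 on the ES arrays and 7.94, 7.60 and 7.72 on the Pax7-GFP arrays. Neither class overlapped between the groups, and Pax7-GFP replicate 2 gave the lowest median in each. The median of all 23521 rows lay between 5.95 and 6.06 on the same arrays.

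A row was called when limma's moderated test, with Benjamini-Hochberg adjustment over all 23521 rows, gave an adjusted p under 0.05 and the groups differed at least 2-fold, that is by 1 on the log2 scale. Over all rows, 7.09% were called lower and 7.21% higher in Pax7-GFP cells, or 14.3% in all. Members were brighter than most rows, with 3 H/ACA and 8 C/D rows below the median of row means. With dim rows left out, 8.69% of the 19013 rows kept were called lower and 8.90% higher. Among the H/ACA rows 9 of 28 (32.1%) were called lower and 1 higher. Among the C/D rows 12 of 47 (25.5%) were called lower and 1 higher. The remaining 52 rows were not called.

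The median log2 difference, Pax7-GFP minus ES, was -0.49 over the H/ACA rows and -0.38 over the C/D rows, beside 0.024 over all rows. Differences ran from -2.67 to 1.12 in the H/ACA class and from -2.40 to 1.07 in the C/D class. In all, 54 of the 75 rows had a difference below 0. All 3 Pax7-GFP arrays lay below all 3 ES arrays in 37 member rows and above them in 13, and in 25 rows the groups overlapped. Over all rows 25.4% separated downward and 26.0% upward.

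Without the fold minimum, 37 members passed the adjusted p downward and 11 upward. The shares of all rows that did so were 21.1% and 19.5%. The members thus included 16 rows that fell by less than 2-fold and 9 that rose by less than 2-fold.

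**Figure D1:**
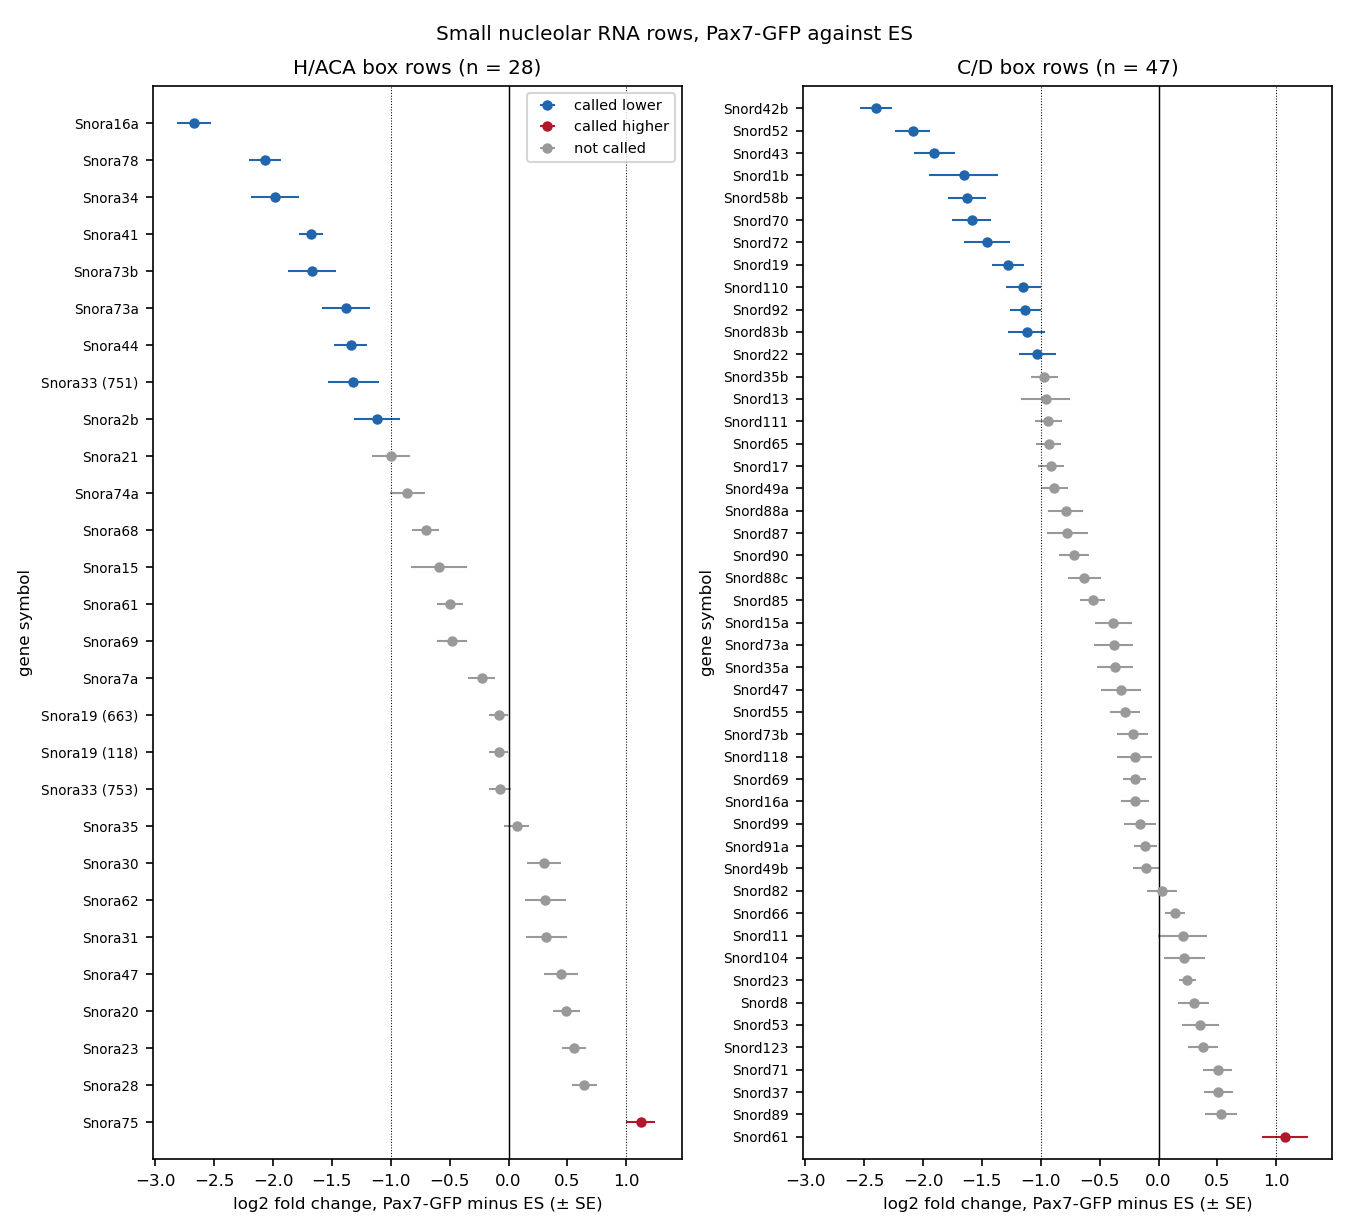
Log2 difference of each member row, Pax7-GFP minus ES, ordered within H/ACA (28 rows) and C/D (47 rows), with bars of 1 SE and dotted lines at a 2-fold difference (blue called lower, red called higher, grey not called); symbols with more than 1 row carry the last digits of the probe set. Most rows of both classes lie left of 0, from Snora16a at -2.67 and Snord42b at -2.40 to Snora75 at 1.12 and Snord61 at 1.07.

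Among H/ACA snoRNAs, Snora16a had the largest difference. Its log2 signal was 10.56, 10.40 and 10.24 in ES cells and 7.74, 7.46 and 7.98 in Pax7-GFP cells. It fell by 2.67 (SE 0.14, limma adjusted p = 2.29e-06), or 6.36-fold, and the groups stood more than 2 log2 units apart at their closest arrays.

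Snora78 read 9.06, 8.83 and 8.78 in ES cells against 7.02, 6.57 and 6.87 in Pax7-GFP cells, and fell by 2.07 (SE 0.13, limma adjusted p = 6.02e-06). Snora34 read 10.89, 10.50 and 10.34 against 8.92, 8.19 and 8.67, and fell by 1.98 (SE 0.20, limma adjusted p = 8.87e-05). Both were separate between groups, and the 2nd Pax7-GFP array was the lowest for each. Snora41 read 7.75, 7.65 and 7.58 against 5.96, 5.85 and 6.14, and fell by 1.68 (SE 0.10, limma adjusted p = 4.06e-06). Its arrays were close together within each group.

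The other H/ACA rows called lower were Snora73b, Snora73a, Snora44 (-1.34), 1 of the Snora33 rows (-1.32) and Snora2b (-1.12). The Snora2b call did not hold without ES replicate 1 (-0.95) or without Pax7-GFP replicate 2 (-0.96). Just outside the fold minimum stood Snora21, at -0.996 and 1.99-fold, with a limma adjusted p of 0.00130, and it was called in 5 other settings, such as without Pax7-GFP replicate 1 (-1.18), ES replicate 2 (-1.03) or ES replicate 3 (-1.01). Snora74a (-0.86), Snora68 (-0.70), Snora15 (-0.59) and Snora61 (-0.50) came next below 0.

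Snora75, an H/ACA guide in an intron of nucleolin (Ncl), was the only H/ACA row called higher. Its log2 signal was 11.05, 10.81 and 10.61 in ES cells and 12.06, 11.95 and 11.83 in Pax7-GFP cells. It rose by 1.12 (SE 0.12, limma adjusted p = 0.000141), or 2.18-fold, with no overlap between groups. Snora28 (0.64), Snora23 (0.56), Snora20 (0.49) and Snora47 (0.44) were also above 0 but under 2-fold.

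Among C/D snoRNAs, Snord42b had the largest difference. Its log2 signal was 10.53, 10.51 and 10.46 in ES cells and 7.85, 8.06 and 8.40 in Pax7-GFP cells. It fell by 2.40 (SE 0.14, limma adjusted p = 3.16e-06), or 5.27-fold. The ES arrays differed by less than 0.1 among themselves.

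Snord52 read 8.65, 8.71 and 8.58 in ES cells and 6.53, 6.27 and 6.87 in Pax7-GFP cells, and fell by 2.09 (SE 0.15, limma adjusted p = 9.94e-06). Snord43 read 8.60, 8.75 and 8.40 against 6.51, 6.46 and 7.08, and fell by 1.90 (SE 0.17, limma adjusted p = 4.54e-05). The Pax7-GFP arrays of both lay more than 1 log2 unit below the lowest ES array.

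Snord1b had the widest spread of the 6 largest falls, with 7.98, 7.70 and 7.40 in ES cells and 6.64, 5.39 and 6.08 in Pax7-GFP cells. It fell by 1.65 (SE 0.29, limma adjusted p = 0.00199). Snord58b read 7.87, 7.83 and 7.61 against 6.26, 5.78 and 6.39, and fell by 1.63. The groups did not overlap in either. Snord70 read 6.60, 6.63 and 6.46 against 5.36, 4.66 and 4.92, and fell by 1.59, which took it below the median signal of all rows.

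The other C/D rows called lower were Snord72 (-1.46), Snord19 (-1.28), Snord110 (-1.15), Snord92 (-1.13), Snord83b (-1.12) and Snord22 (-1.03). The calls of Snord83b (without ES replicate 1, -0.94) and Snord110 (without Pax7-GFP replicate 2, -0.99) each rested on 1 array, and that of Snord22 is taken up with the processing snoRNAs. Snord35b, at -0.97 and a limma adjusted p of 0.000222, stood just outside the fold minimum and passed it without ES replicate 3 (-1.06) or Pax7-GFP replicate 1 (-1.03).

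Snord61 was the only C/D row called higher. Its log2 signal was 4.18, 4.88 and 4.35 in ES cells and 5.64, 5.25 and 5.74 in Pax7-GFP cells, all below the median of the rows. It rose by 1.07 (SE 0.20, limma adjusted p = 0.00249), or 2.10-fold, and the call did not hold without ES replicate 1 (0.93) or without Pax7-GFP replicate 3 (0.97). Snord89 (0.53), Snord37 (0.51) and Snord71 (0.50) were the next above 0.

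**Figure D2:**
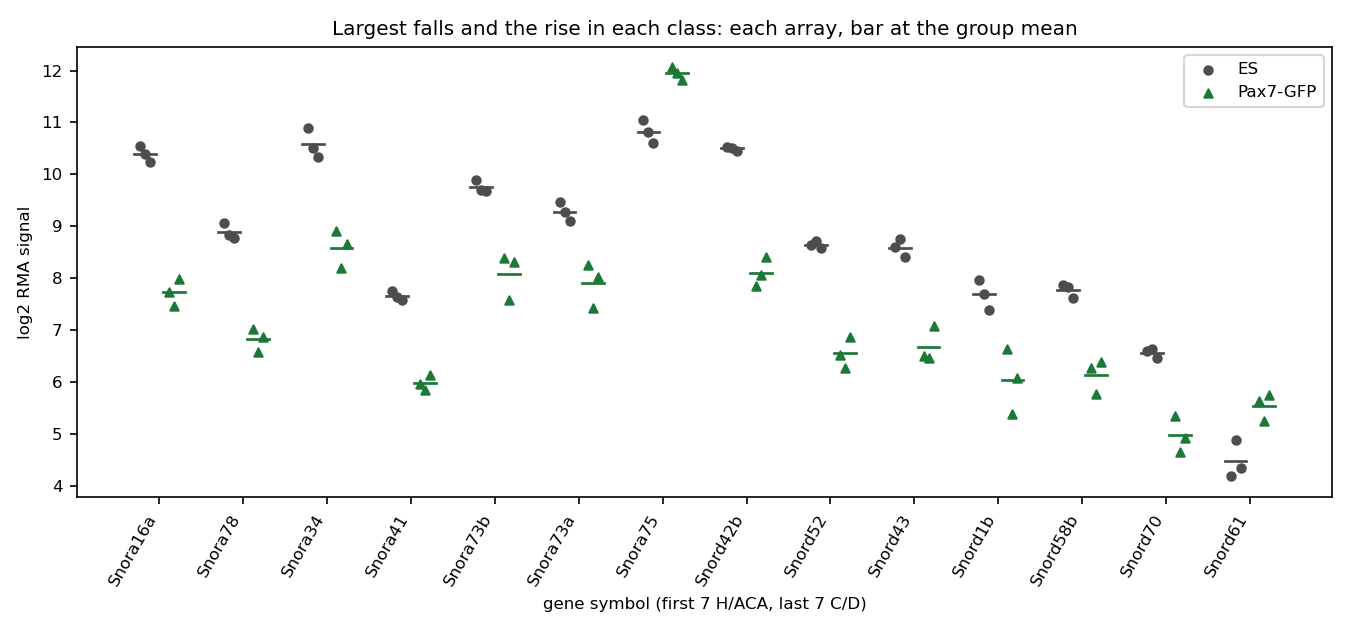
Log2 RMA signal on each of the 3 ES and 3 Pax7-GFP arrays for the 6 largest falls and the 1 rise of each class, with 1 point per array (circles ES, triangles Pax7-GFP) and a bar at the group mean. The groups do not overlap in any of the rows drawn, and only Snora75 and Snord61 have the Pax7-GFP arrays on top.

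The snoRNAs that act in pre-rRNA processing, and U13 beside them, differed in size of change. The assay primes from poly(A) tails, which mature snoRNAs lack. Whether a row reads the mature snoRNA or unspliced host RNA is not given in the sources and was not tested. U17, which is needed for maturation of the small-subunit rRNA, has the rows Snora73a and Snora73b. Snora73b read 9.89, 9.71 and 9.68 in ES cells and 8.39, 7.57 and 8.31 in Pax7-GFP cells, and fell by 1.67 (SE 0.20, limma adjusted p = 0.000239). Snora73a read 9.47, 9.27 and 9.11 against 8.26, 7.43 and 8.02, and fell by 1.38 (SE 0.20, limma adjusted p = 0.000685). Both copies were lowest on Pax7-GFP replicate 2 and did not overlap between groups.

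U22 (Snord22), which also acts in maturation of the small-subunit rRNA, read 8.05, 8.07 and 7.78 in ES cells and 7.13, 6.59 and 7.09 in Pax7-GFP cells. It fell by 1.03, and its call did not hold without ES replicate 1 (-0.99), ES replicate 2 (-0.98) or Pax7-GFP replicate 2 (-0.86), or with array weights (-0.997), since the fold came under 2 each time. U13 (Snord13), a C/D snoRNA with a gene of its own, read 8.93, 8.73 and 8.63 against 8.30, 7.39 and 7.72. Its difference of -0.96 (SE 0.21, limma adjusted p = 0.00638) passed the adjusted p but not the fold minimum, which it passed without ES replicate 3 (-1.03) or Pax7-GFP replicate 1 (-1.21).

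U8 (Snord118), needed for maturation of the large-subunit rRNAs, read 8.12, 8.15 and 7.69 in ES cells and 7.98, 7.77 and 7.61 in Pax7-GFP cells. The groups overlapped, with a difference of -0.20 (SE 0.15, limma adjusted p = 0.333). U3 has a row on these arrays under the symbol Rnu3a, outside the naming rule. The 3 ES values of that row (9.69, 8.56 and 7.93) already spanned the Pax7-GFP values of 8.50 to 9.72 almost wholly. None of the symbols Snord3, Snord14, Snord113, Snord114, Snord115 or Snord116 had a row with a single symbol.

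The host of each snoRNA was taken as the gene of the RefSeq table (GRCm38.p6) whose span holds it. Strand was not checked, so a shared transcript is assumed. A single host was found for 66 of the 75 rows, in 50 genes. Probe sets of this array are numbered along the genome, since 98.8% of rows belong to a gene on the chromosome of most of their neighbours, so a host was read only from a row numbered within 100 of its snoRNA. This gave 39 hosts for 54 rows. For 6 rows (Snora78, Snord47, Snord71, Snord8, Snord87 and Snord91a) more than 1 gene spanned the snoRNA and none was chosen. Snord118, Snord13 and Snord89 lay in no other gene. Among the 39 measured hosts 6 were called lower, 2 higher and 31 not called, and their median difference was -0.48. The calls of Snhg4 (-1.04, and -0.95 without Pax7-GFP replicate 1) and Nop56 did not hold in every setting. Without Pax7-GFP replicate 3, Rpl3 (-1.03), Gnl3 and Ncl were called lower as well. The shares of all 23521 rows called were 7.09% lower and 7.21% higher.

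Members and hosts differed in the same direction in 41 of 54 pairs and in opposite directions in 13. Over the 54 pairs Pearson's r of the log2 differences was 0.52 and Spearman's rho 0.51, given as a description because all pairs share the same 6 arrays and several share a host. Of the 18 members called lower with a measured host, 16 had a larger fall than the host, and the host was itself called lower for 6 and not called for 12. Since the members were picked for being low here, that count is fixed in part by the choice. Over all 54 pairs the member lay below its host in 26 and above it in 28, with a median member-minus-host difference of 0.028.

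**Figure D3:**
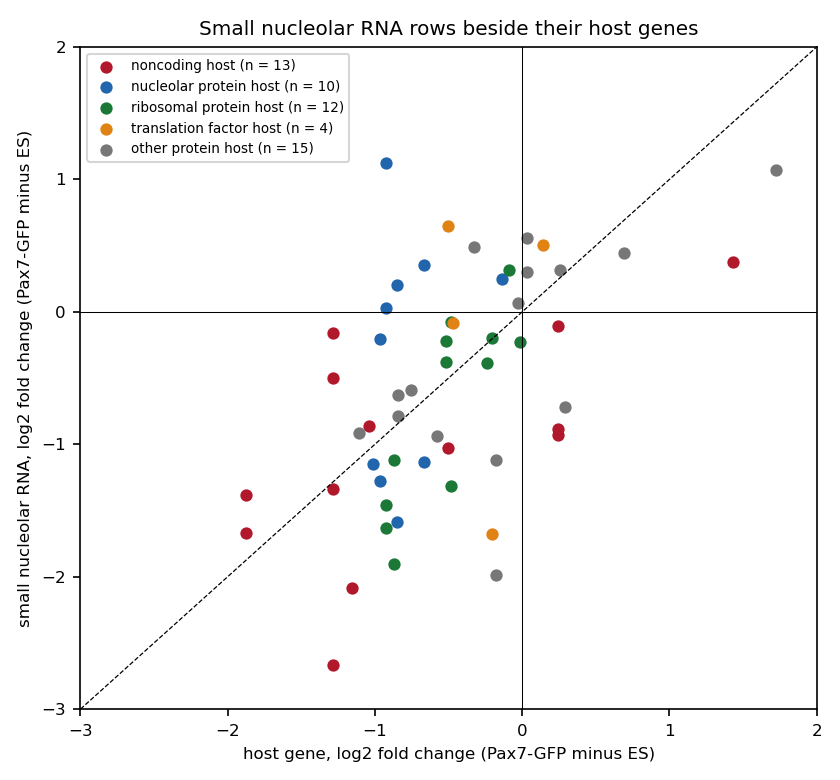
Log2 difference of the host gene (horizontal) against that of the snoRNA row (vertical) for 54 pairs, Pax7-GFP minus ES, coloured by kind of host, with a dashed line of equal change. Points spread widely around the line: Snora16a lies at -2.67 with its host Snhg12 at -1.28, and Snora75 at 1.12 with its host Ncl at -0.92.

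Several protein-coding hosts of large falls were not called. Eef1b2, a translation elongation factor gene holding Snora41, differed by -0.21 (limma adjusted p = 0.0705) where Snora41 fell by 1.68. On the ES arrays the log2 signal of Snora41 minus that of Eef1b2 lay between -3.85 and -3.82, and on the Pax7-GFP arrays between -5.45 and -5.13, so the ratio separated the groups. Kansl2, a chromatin regulator gene holding Snora34 and Snora2b, differed by -0.18 (limma adjusted p = 0.273).

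Rpl3, a ribosomal protein gene holding Snord43 and Snord83b, had rows of its own that disagreed. The brighter, used here, differed by -0.87 and the dimmer by 0.012. The brighter row is numbered between the rows of Snord83b and Snord43, and the dimmer had a mean log2 signal of 4.76. Whether the brighter row reads the host transcript or an intron was not tested. Snord42b lies in the ribosomal protein gene Rpl23a, which had no row of its own near it and is left without a comparison. The noncoding host of Snord52, 1110038B12Rik, fell by 1.15 (limma adjusted p = 4.35e-05) where Snord52 fell by 2.09. In the upward direction Rbmx, an RNA-binding protein gene that holds Snord61, was itself called higher with a difference of 1.72.

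Kinds of host were grouped after the values were seen, and 7.09% of all 23521 rows were called lower and 7.21% higher. The 15 rows in noncoding hosts had a median of -0.93 with 7 called lower. The 19 rows in ribosomal protein genes had a median of -0.48 with 6 called lower. Of the 16 hosts of that kind 9 were measured, none called by limma, with a median of -0.48. Those hosts were read at unlike mean log2 signals. Rpl32 (12.7) differed by -0.014 and Rpl4 (12.6) by -0.20, while Rpl37 (6.26) differed by -0.92 and Rps3a1 (5.55) by -0.51. Rpsa (7.55) differed by -0.089. The 10 rows in genes of nucleolar proteins had a median of -0.085 with 4 called lower and 1 higher, and the median of these 6 hosts was -0.89. The 6 rows in translation factor genes had a median of 0.030 with 1 called lower. The remaining 16 rows, in other protein genes, had a median of -0.57 with 2 called lower and 1 higher.

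Rows within the span of 1 host gene often differed from each other. There were 13 hosts with at least 2 member rows, and the difference between the highest and the lowest member of a host reached 2.51. Eif3a and Rps12 each held 2 rows of the same snoRNA. The rows in Rps12, both for Snora33, lay 1.24 apart, more than the members of Gnl3 (1.08) or Ncl (1.09). Spreads of that size thus also occurred between rows of 1 snoRNA. Snhg12, a noncoding host, held 4 members. Snora16a fell by 2.67 and Snora44 fell by 1.34, while Snora61 differed by -0.50 and Snord99 by -0.16, and Snhg12 itself fell by 1.28 (SE 0.10, limma adjusted p = 2.09e-05).

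Within Snhg12 the members parted on the Pax7-GFP arrays. Snord99 read 10.40, 10.24 and 10.05 in ES cells and 10.28, 10.10 and 9.83 in Pax7-GFP cells, so its groups overlapped. Its log2 signal minus that of the host rose from between 1.93 and 2.18 on the ES arrays to between 2.75 and 3.49 on the Pax7-GFP arrays. That of Snora16a went the other way, from between 2.1 and 2.3 to between 0.66 and 0.96. On the ES arrays the values of Snord99 and Snora16a overlapped. Snora44 minus host overlapped between groups, at 0.52 to 0.89 and 0.50 to 0.93.

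Nop58, which encodes a C/D core protein, holds Snord70 and Snord11. Snord70 fell by 1.59, and Snord11 read 10.26, 9.91 and 9.64 in ES cells and 10.55, 10.07 and 9.80 in Pax7-GFP cells, a difference of 0.20. Nop58 itself differed by -0.85. Wdr43, a gene for a protein of the small-subunit processome, held Snord92 (-1.13) and Snord53 (0.35) and differed by -0.67. Gnl3, which encodes nucleostemin, held Snord19 (-1.28) and Snord69 (-0.20) and differed by -0.97, or -1.05 and called without Pax7-GFP replicate 3.

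Ncl encodes nucleolin, an abundant nucleolar protein, and holds Snora75 and Snord82. Snora75 rose by 1.12, Snord82 differed by 0.03, and Ncl differed by -0.92, or -1.05 and called without Pax7-GFP replicate 3. The log2 signal of Snora75 minus that of Ncl lay between -1.33 and -0.82 on the ES arrays and between 0.57 and 1.42 on the Pax7-GFP arrays. The 2 rows for Snora33, in the ribosomal protein gene Rps12, disagreed with each other. One read 7.59, 7.71 and 7.34 in ES cells and 6.59, 5.71 and 6.38 in Pax7-GFP cells, and the other 12.64, 12.55 and 12.44 against 12.56, 12.50 and 12.35.

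In other hosts both members fell. Snhg3, the noncoding host of U17, fell by 1.88 (SE 0.14, limma adjusted p = 1.23e-05) with both U17 rows. Snord43 (-1.90) and Snord83b (-1.12) fell by unequal amounts in Rpl3, as did Snora34 (-1.98) and Snora2b (-1.12) in Kansl2. None of the 3 members of 2410006H16Rik was called. In that host, which differed by 0.24, Snord65 (-0.93) and Snord49a (-0.89) were under 2-fold and Snord49b (-0.11) was near 0.

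Differences between members of a host, or between a member and its host, were not tested. An exact permutation test of 3 arrays against 3 cannot give a two-sided p below 0.10. Mature snoRNAs lack the poly(A) tails from which the assay primes. The sources do not say whether a row reads the mature snoRNA or unspliced host RNA, and this was not tested.

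**Figure D4:**
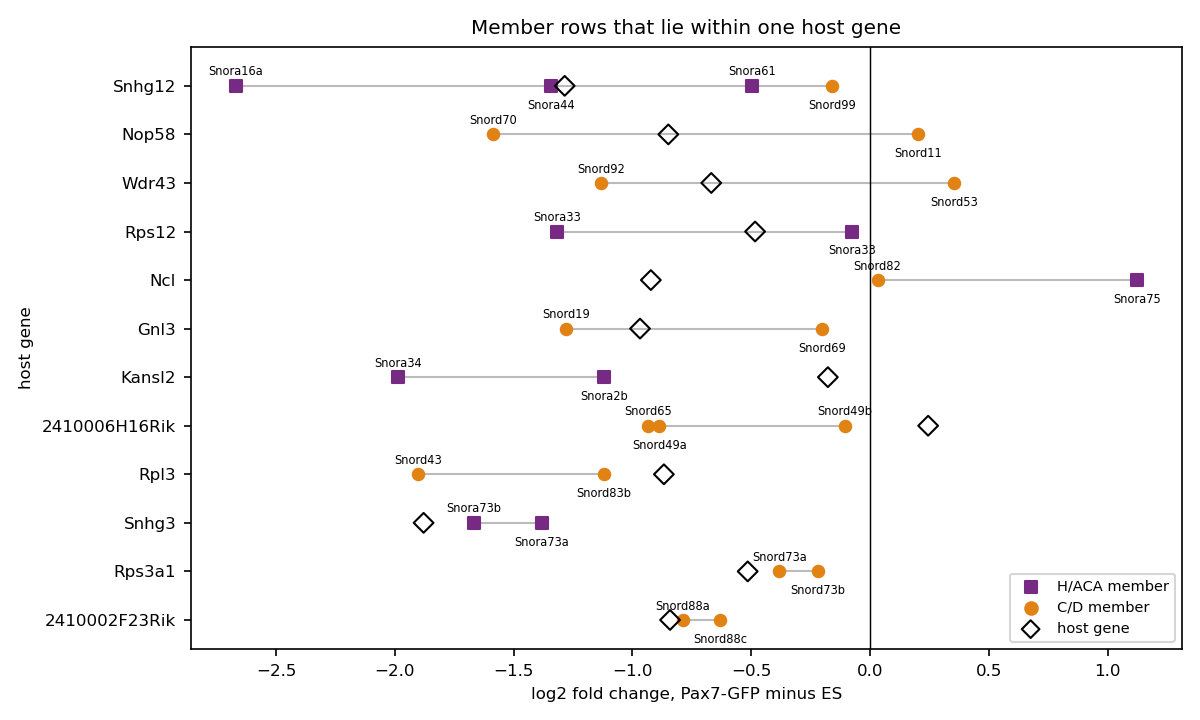
Log2 difference, Pax7-GFP minus ES, of each member row (squares H/ACA, circles C/D), grouped by the hosts that hold at least 2 rows with differing values, and of the host itself (open diamonds). Members of Snhg12 run from -2.67 to -0.16 and those of Nop58 from -1.59 to 0.20, while the U17 rows of Snhg3 lie together. For Rpl3 the diamond is the brighter row, numbered between its snoRNA rows.

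The proteins that build and carry snoRNAs were read from lists of genes of the pathway. Counts called in these lists stand beside 7.09% of all rows called lower and 7.21% higher. Listed genes were read from their brightest rows, and with dim rows left out those shares were 8.69% and 8.90%. Among H/ACA core proteins, all 4 were measured and 2 were called lower. Nhp2, an RNA-binding core protein, fell by 1.39 (SE 0.10, limma adjusted p = 1.50e-05), and Dkc1, which encodes dyskerin, fell by 1.32 (SE 0.17, limma adjusted p = 0.000372). Nop10 (-0.48) and Gar1 (-0.31) were not called.

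Of the 5 symbols listed for C/D core proteins 3 were measured, and fibrillarin was not among those 3. Nop56 was called lower at -1.02 (limma adjusted p = 0.000272), beside Nop58 (-0.85) and Snu13 (-0.40, from a row numbered among genes of another chromosome). The Nop56 call came under 2-fold without ES replicate 3 (-0.999), Pax7-GFP replicate 1 (-0.92) or Pax7-GFP replicate 2 (-0.97), and under 2 of the other settings. Dimmer rows of Nop56 differed by -0.25 (not called) and by -1.32 (called lower). A list of factors for particle assembly, which also held Cajal body genes, had 4 of 15 measured genes called lower. That stands beside 7.09% of all rows, and the list median was -0.75. Coil, which encodes the Cajal body scaffold coilin, fell by 2.07. Wrap53, which brings RNAs to Cajal bodies, fell by 1.25, and the H/ACA chaperones Shq1 and Naf1 fell by 1.15 and 1.07. The Naf1 call did not hold without ES replicate 1 (-0.97) or ES replicate 2 (-0.94).

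Proteins of the U3 particle, the complex that cuts pre-rRNA toward the small subunit, were called lower for 12 of 26, with a median of -0.94. That count was 4 without Pax7-GFP replicate 1 and 6 with array weights. Of RNA polymerase I subunits and its factors, which transcribe pre-rRNA, 5 of 17 were called lower, among them Baz2a (-2.21), a subunit of a complex that silences rRNA genes. Of other nucleolar proteins 3 of 16 were called lower, and 8 without Pax7-GFP replicate 3. The share of all rows called lower was 7.09%.

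Of factors for 3′ ends and decay of snoRNAs none of 11 was called by limma. On the adjusted p alone, which 21.1% of all rows passed downward and 19.5% upward, 6 of those 11 were lower, such as the lariat debranching enzyme gene Dbr1 (-0.77), and 2 higher, and 1 was called lower without Pax7-GFP replicate 3. A list of 19 measured noncoding RNAs, mostly snoRNA hosts, together with the protein-coding Ube3a of an imprinted snoRNA cluster, had 8 genes called lower and 2 higher. The shares of all rows called were 7.09% lower and 7.21% higher. Snhg14, the host of the imprinted Snord115 and Snord116 clusters, fell by 2.27, and Snhg7 fell by 1.80. Rian, the host of imprinted C/D snoRNAs of another cluster, rose by 1.23, and Snhg18 rose by 1.43.

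**Figure D5:**
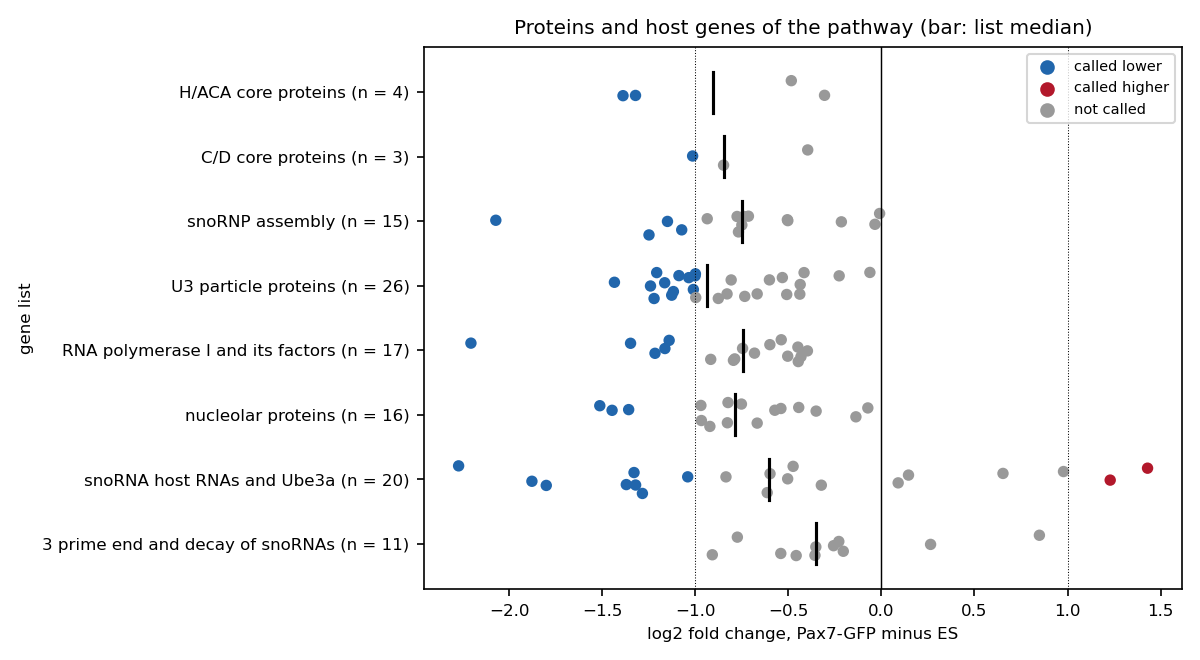
Log2 difference, Pax7-GFP minus ES, of each measured gene (1 point a gene) in 8 lists of snoRNP, nucleolar and host genes (the last but 1 holds 19 noncoding RNAs and Ube3a), coloured by call, with a bar at the list median, a line at 0 and dotted lines at a 2-fold difference. Every list median lies below 0, from -0.94 for the U3 particle to -0.35 for 3′ end and decay factors, and the points above 1 are Snhg18 and Rian.

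The small Cajal body RNAs (Scarna), guides of the same 2 kinds that act on spliceosomal RNAs, were outside the rule. None of their 6 rows was called by limma, and on the adjusted p alone 3 were lower and 1 higher, beside 21.1% and 19.5% of all rows, with a median of -0.092. Scarna6 differed by -0.91 and Scarna10 by 0.59. The 43 rows with several symbols, fitted with all rows of the table, gave 11 called lower, with a median of -0.38, where 6.25% of all 41345 rows were called lower and 5.73% higher.

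Defining markers of both cell types were read beside the members. All 7 pluripotency genes were called lower in Pax7-GFP cells and all 7 muscle progenitor genes higher. Their mean log2 signals on the arrays were 10.3 to 10.4 against 5.21 to 5.32 for the first list and 5.84 to 5.92 against 10.6 to 10.9 for the second. Fibroblast markers moved with the groups as well, with 2 of 5 called higher and mean signals of 6.37 to 6.60 in ES cells and 7.45 to 7.98 in Pax7-GFP cells. Other lists were mixed. Of 4 endothelial markers Cdh5 (1.41) was called higher and Pecam1 (-2.43) lower, with mean signals of 6.09 to 6.12 in ES cells and 5.63 to 5.80 in Pax7-GFP cells. Of 5 neural markers Map2 (1.46) was called higher and Tubb3 (-4.30) lower, with mean signals of 6.59 to 6.69 and 6.0 to 6.21. Of 4 blood markers 2 were called lower (means 6.55 to 6.62 and 5.35 to 5.65), and of 4 epithelial markers 2 (means 8.35 to 8.39 and 6.14 to 6.36), with Krt18 at 0.88. The part of these other cell types in the snoRNA differences was not tested. Pearson's r over all rows was 0.997 between ES arrays, 0.987 to 0.993 between Pax7-GFP arrays and 0.895 to 0.904 between groups.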

How the data were processed

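RNA was labelled as biotin-cRNA by a double amplification, per the labels' protocols, and the authors deposited log2 RMA signals made in R 2.12.1, per the submitters' processing notes. RMA (robust multi-array average) corrects background, normalizes between arrays and summarises probes. The assay primes from poly(A) tails, which mature snoRNAs lack. The probe set version and genome build are not given in the sources used. Signals ran from 2.73 to 13.7 over 41345 rows. The platform annotation named 1 gene for 23521 rows, several for 1814 and none here for 16010.

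All 23521 rows were fitted by lmFit and eBayes (limma 3.58.1, R 4.3.3, 3 arrays against 3, no covariate) on the deposited scale, and p-values were adjusted over all of them by Benjamini and Hochberg. The number of arrays limits the precision. On simulated data, 98 of 100 rows changed by 1.5 log2 units, 100 of 100 changed by 2.5 and 1 of 23321 unchanged rows were called. The simulated noise was normal and independent between arrays, and the 2-fold minimum alone keeps most unchanged rows from being called. Changes nearer that minimum, where several calls lie, were not simulated.

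The members and gene lists were chosen with earlier results of these data known, so no list was tested. Named rows were the 6 largest rises and 6 largest falls among called rows of each class, U3, U8, U13, U14, U17 and Snord113 to Snord116, hosts with at least 3 member rows, and called snoRNP and noncoding host genes. Other genes were named after their values were seen. A listed gene with several rows was read from the row with the highest mean, which for 3 (Snu13, Imp3 and Npm1) is numbered among genes of another chromosome. A host was read from its brightest row numbered within 100 of the snoRNA row, a rule set after the values were seen (rows taken lay at most 46 away, and the nearest row not taken 2430). The reference table gives no strand for snoRNAs, so rows spanned by several genes were left without a host in place of the planned choice by strand. Both Snora19 rows hold identical values. No row for a mature snoRNA sequence was found in the RefSeq sequence tables, so none is printed.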

Additional observations from a re-analysis of the deposited data

How the results depend on the processing

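Settings tried were quantile normalization, median centring, a signal floor, leaving out dim rows, all table rows, 1 row per gene, another variance prior, array weights, the replicate number as a block, no fold minimum, and each array left out. Counting identical rows once was added after seeing the data. Without the fold minimum the H/ACA counts were 14 lower and 5 higher, and the C/D counts 23 lower and 6 higher. With the floor no C/D row was called higher by limma, while 6 were higher at an unadjusted p under 0.05. Leaving out each array gave 0 to 1 C/D rows called higher, 0 without ES replicate 1 and without Pax7-GFP replicate 3, and a C/D median from -0.58 (without Pax7-GFP replicate 3) to -0.30. Counts called lower ranged from 8 to 10 (H/ACA) and from 10 to 17 (C/D, 17 without Pax7-GFP replicate 1). Differences near 0 changed sign: with 1 array left out, Snord11 ran from -0.0026 to 0.37, Snora35 from -0.0018 to 0.16 and Snord82 from -0.088 to 0.15, each lowest without Pax7-GFP replicate 1. Snord82 was also -0.020 without ES replicate 3 and -0.040 with array weights. The cause was not tested. Of the 23 called members 17 were called in all 16 settings that kept the fold minimum, and 1 more, a Snora33 row, in every one it entered. Of the 52 others 6 were called in at least 1 of them (Snora21, Snord13, Snord17, Snord35b, Snord65 and Snord111). Reading hosts from their brightest row anywhere gave 6 hosts lower and 2 higher, with a median host difference of -0.33 and r of 0.46 over 57 pairs; this was added after seeing the data. Whether replicate numbers pair the samples cannot be told from 3 arrays a group. Same-numbered arrays' deviations correlated at -0.11, -0.22 and 0.0099 over all rows, and at 0.38, -0.28 and 0.19 over the members. With the replicate number as a block the calls of all 75 members were as before, with 9 H/ACA and 12 C/D rows lower and medians of -0.49 and -0.38. The signals carry no detection calls, so a dim row cannot be called absent.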
